A study of Mus musculus with 16 samples.

Results

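Bile acids are made from cholesterol in hepatocytes, conjugated there to glycine or taurine, pumped into bile and taken back up from the blood. The bile acid receptor Nr1h4 (farnesoid X receptor) raises the export pump Abcb11 and Nr0b2 (small heterodimer partner), a repressor of the synthesis genes, when bile acids accumulate. Here 10 mouse genes of this system were examined, out of 55385 in the count table: the synthesis enzymes Cyp7a1, Cyp7b1, Cyp8b1 and Cyp27a1, the conjugating enzymes Baat and Slc27a5, the transporters Abcb11 and Slc10a1, and the nuclear receptors Nr0b2 and Nr1h4. They were chosen by name, with earlier results of these data known, and all 10 were found by gene identifier.

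RNA was sequenced as short reads from 8 tissues of male wild-type C57BL/6 mice under fed and fasting conditions, with 1 library for each tissue and condition and 16 in all. Fed mice had chow freely, and fasting mice went without it for 24 h. The mice were bought at 12 weeks of age and acclimatized for 10 to 14 days on chow, and all were killed in the morning. Each library was made from equal pieces of tissue of 3 mice, combined before RNA extraction, so each group is 1 library and no value carries an error between animals. Library totals lay between 14245178 and 36069968 counts, so that 3 counts, taken as the detection floor, corresponded to 0.0832 to 0.211 CPM, the count scaled to the library total. All intervals are exact 95% intervals for counting error only.

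The labels were checked against marker genes. The 7 hepatocyte markers summed to 106288 CPM in fed and 103357 CPM in fasting liver, led by Alb at 63761 and 52136 CPM and Apob at 20066 and 24222 CPM. Of these 7, Cps1 was called higher (6296 to 12589 CPM), Ttr and Fgb lower and 4 were not called. The 6 proximal tubule markers summed to 34150 CPM in fed and 29279 CPM in fasting kidney, led by Kap at 17943 and 16230 CPM and Lrp2 at 8220 and 6935 CPM. Genes of pancreatic acinar cells were also present in liver, where the 12 markers summed to 127 CPM in fed and 286 CPM in fasting conditions and 11 of them were called higher, with Pnlip at 19.4 and 45.4 CPM and Cela1, the exception, at 37.5 and 34.7 CPM. The 7 cholangiocyte markers summed to 47.3 and 33.2 CPM in liver with Spp1 alone called (25.5 to 14.5 CPM) and Krt7 at 0.781 and 0.521 CPM. The 6 Kupffer cell markers summed to 205 and 169 CPM with none called, among them C1qa (26.2 CPM in fed liver) and Adgre1 (16.6 CPM). The 6 stellate cell markers summed to 407 and 393 CPM with 1 called in each direction, neither of them Des (6.53 CPM in fasting liver) or Dcn (143 and 168 CPM). In fed spleen the acinar markers summed to 666 CPM, against 12.1 CPM in fasting spleen. The part of these cells in the results below was not tested.

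In the fed state 9 of the 10 genes were higher in liver than in any of the other 7 tissues, and Nr1h4 was highest in kidney. Under fasting conditions 8 of 10 were highest in liver, with Nr1h4 and Cyp7b1 highest in kidney. The genes fell into those seen almost solely in liver and those shared with other tissues.

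**Figure D1:**
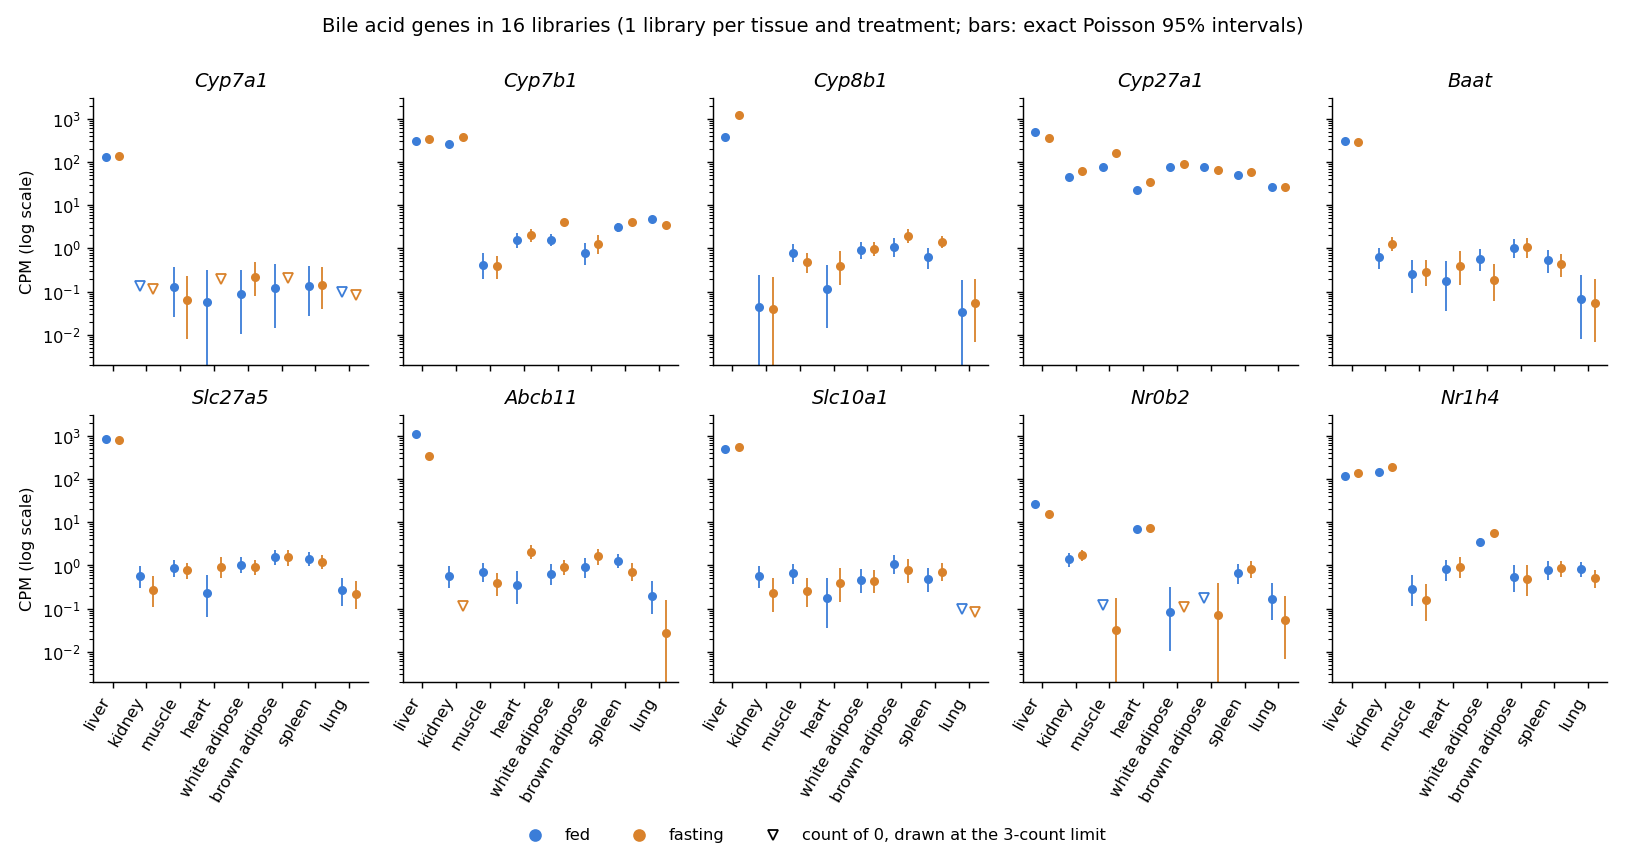
CPM (log axis) of the 10 bile acid genes in each of the 16 libraries, by tissue, with fed in blue and fasting in orange; bars are exact Poisson intervals and open triangles mark a count of 0 drawn at the 3-count limit. Cyp7a1, Cyp8b1, Baat, Slc27a5, Abcb11 and Slc10a1 stay at or below 2.10 CPM in all 14 libraries outside liver, whereas Cyp27a1 is at 22.4 CPM or more in every library.

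Among the enzymes, Cyp7a1 (chr4:6265612-6275633, minus strand, GRCm38), which catalyses the rate-limiting step of the classical pathway, was measured at 131 CPM (126 to 135) in fed and 134 CPM (130 to 139) in fasting liver. Outside liver it reached at most 0.219 CPM, and 12 of 14 libraries were at or under the floor. Cyp8b1 (chr9:121914356-121916305, minus strand), whose hydroxylation step sets how much cholic acid is made, was at 383 CPM in fed and 1212 CPM in fasting liver and between 0.0333 and 1.97 CPM elsewhere. Fed liver was 353-fold above the next fed tissue, brown adipose, for Cyp8b1, and no such ratio is given for Cyp7a1, whose next fed tissue was at the floor.

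The enzymes of the alternative pathway were spread more widely. Cyp7b1 (chr3:18071950-18243338, minus strand), which hydroxylates oxysterols, was at 303 and 333 CPM in fed and fasting liver and at 255 and 371 CPM in fed and fasting kidney. In the other 12 libraries it lay between 0.388 CPM in fasting muscle and 4.72 CPM in fed lung. Liver and kidney therefore stood apart from the remaining tissues, and their order changed between fed and fasting conditions.

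Cyp27a1 (chr1:74713574-74737892, plus strand), the mitochondrial enzyme that oxidizes the sterol side chain, was detected in all 16 libraries. In the fed libraries it was at 498 CPM in liver, 77.9 CPM in brown adipose, 75.8 CPM in muscle, 74.9 CPM in white adipose, 51.2 CPM in spleen, 45.4 CPM in kidney, 26.6 CPM in lung and 22.4 CPM in heart. In the fasting libraries it was at 361 CPM in liver, 65.0 CPM in brown adipose, 159 CPM in muscle, 87.7 CPM in white adipose, 59.0 CPM in spleen, 61.4 CPM in kidney, 25.8 CPM in lung and 33.6 CPM in heart. The counting intervals of fed brown adipose, muscle and white adipose overlapped, as did those of fed spleen and kidney, whereas liver was 6.39-fold above the next tissue in fed and 2.27-fold in fasting conditions.

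The conjugating enzymes and the transporters were liver genes. Baat (chr4:49489422-49506557, minus strand), which joins bile acids to taurine or glycine, was at 309 and 298 CPM in fed and fasting liver and at most 1.28 CPM elsewhere. Slc27a5 (chr7:12988346-12998192, minus strand), which makes the bile acid coenzyme A esters that Baat uses, was at 826 and 784 CPM and at most 1.57 CPM elsewhere. Abcb11 (chr2:69238282-69342616, minus strand), the bile salt export pump of the canalicular membrane, was at 1106 CPM in fed and 339 CPM in fasting liver and at most 2.10 CPM elsewhere. Slc10a1 (chr12:80953183-80968705, minus strand), the sodium-dependent uptake carrier of the sinusoidal membrane, was at 507 and 538 CPM and at most 1.08 CPM elsewhere, with 0 counts in both lung libraries. For these 4 genes the fed liver library held between 99.0% (Baat) and 99.6% (Abcb11) of the CPM summed over the 8 fed tissues, and neighbours in the order of the other fed tissues had overlapping counting intervals.

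The receptors differed from this pattern and from each other. Nr0b2 (chr4:133553376-133556536, plus strand) was at 26.0 and 15.2 CPM in fed and fasting liver, 6.85 and 7.27 CPM in fed and fasting heart, and 1.38 and 1.75 CPM in fed and fasting kidney. In the other 10 libraries it lay between 0 and 0.826 CPM, and 7 of the 14 libraries outside liver were at or under the floor. Heart was thus the second tissue for this repressor, on 118 fed and 111 fasting counts. Nr1h4 (chr10:89454234-89533585, minus strand) was at 143 and 188 CPM in fed and fasting kidney, above liver at 116 and 140 CPM, and at 3.52 and 5.54 CPM in white adipose. It was at or under 0.918 CPM in the other tissues, and neighbours in their fed order had overlapping counting intervals.

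Within liver, levels can be compared between genes only per length. On this scale (CPM per 1000 bases of gene length) the fed order was led by Slc27a5 at 339, followed by Slc10a1 at 231, Cyp27a1 at 229, Abcb11 at 215 and Cyp8b1 at 196. Baat followed at 159, Cyp7b1 at 140, Nr1h4 at 50.3, Cyp7a1 at 31.3 and Nr0b2 at 23.0. In fasting liver Cyp8b1 moved to the top at 621, which was 33.9% of the sum over the 10 genes against 12.2% in fed liver. Abcb11 moved down to rank 7 at 65.8, close to Nr1h4 at 60.7, and its share of the sum went from 13.3% to 3.59%. The rate-limiting enzyme Cyp7a1 kept rank 9 in both libraries.

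**Figure D2:**
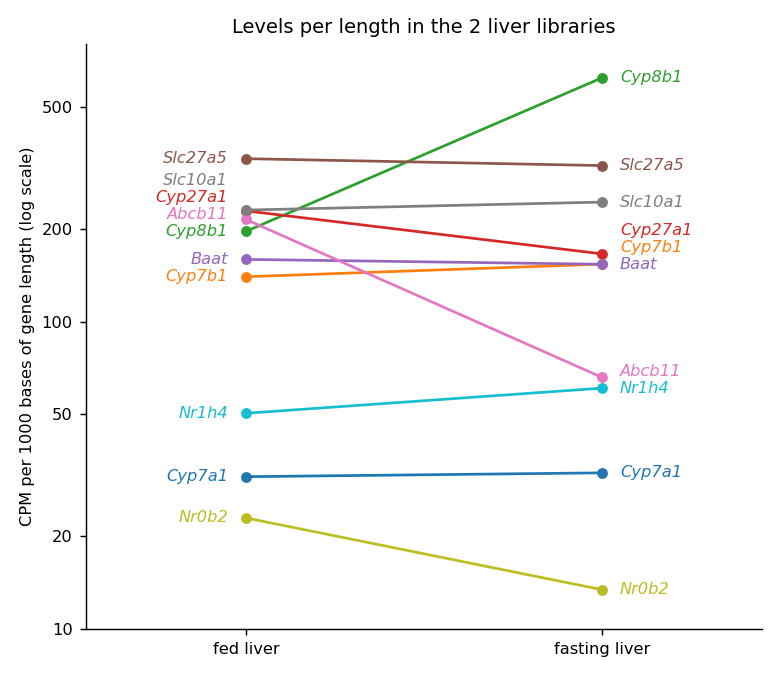
Level per gene length (CPM per 1000 bases, log axis) of the 10 genes in the fed and the fasting liver library, joined by lines. Cyp8b1 goes from 196 to 621 and Abcb11 from 215 to 65.8, while the lines of the other genes are flatter.

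The next question was which of these genes differed between fasting and fed liver. A two-sided Fisher's exact test set the fasting counts of a gene against its fed counts, and a call required a log2(FC) above 0.5 in size together with an unadjusted p under 0.01. Fold changes carry a pseudocount of 0.01 CPM, and with 1 library per condition the test compares these libraries and not the conditions. In liver 4.46% of the genes tested were called higher and 9.52% lower in fasting, and 22.7% of those with at least 10 CPM were called in either direction. Of the 10 bile acid genes 1 was called higher (Cyp8b1), 2 were called lower (Abcb11 and Nr0b2) and 7 were not called, so their number is not far from the 22.7% of genes expressed at such levels. The median log2(FC) of the 10 genes was -0.0054, against -0.13 for all genes with at least 1 CPM. In pooled tissue, fewer cells of a type and less RNA per cell cannot be told apart.

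For the 3 genes called in liver, the 250 bases before their RefSeq transcription starts (GRCm38.p6) are printed 5′ to 3′ on the coding strand. Capitals mark matches, on either strand, to 3 of the motifs searched: the TATA box TATAAA, the nuclear receptor core AGGTCA and the HNF4 element CAAAGTCCA. They come from chr9:121916306-121916555 (minus strand), chr2:69342617-69342866 (minus strand) and chr4:133553126-133553375 (plus strand).
Cyp8b1: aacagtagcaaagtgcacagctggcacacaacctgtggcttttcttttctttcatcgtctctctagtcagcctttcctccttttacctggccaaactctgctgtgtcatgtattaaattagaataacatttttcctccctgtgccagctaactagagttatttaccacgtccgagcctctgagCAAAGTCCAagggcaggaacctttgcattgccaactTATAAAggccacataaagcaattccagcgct
Abcb11: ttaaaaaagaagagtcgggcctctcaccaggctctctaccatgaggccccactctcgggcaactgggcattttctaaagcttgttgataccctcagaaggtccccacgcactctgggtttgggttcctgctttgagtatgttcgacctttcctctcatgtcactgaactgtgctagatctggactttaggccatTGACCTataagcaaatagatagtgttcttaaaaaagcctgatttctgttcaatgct
Nr0b2: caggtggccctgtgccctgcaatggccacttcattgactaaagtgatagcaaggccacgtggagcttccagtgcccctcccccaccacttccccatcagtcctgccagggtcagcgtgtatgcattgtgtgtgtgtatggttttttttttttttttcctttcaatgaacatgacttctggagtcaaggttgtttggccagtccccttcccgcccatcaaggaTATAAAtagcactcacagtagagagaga

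The Cyp8b1 window holds the HNF4 element at -67 to -59 and TATAAA at -31 to -26 from the start, the Nr0b2 window holds TATAAA at -28 to -23, and the Abcb11 window holds the receptor core on the opposite strand at -56 to -51. Among 32851 RefSeq promoter windows of 300 bases, 0.475% held the HNF4 element, 13.6% TATAAA and 16.3% the receptor core. Only exact letters were searched. The longer receptor element CAAGGTCA, known as a site of Nr5a2 (1.56% of windows), and the D-box TTATGTAA (0.938%) matched in no window found for the 10 genes. Nor did the inverted repeat of the core with 1 base between (0.00913%). In the Abcb11 window, however, aggccat stands directly before the marked TGACCT, which is near that repeat without being an exact match. Genes that were not called held some of the same motifs, with the receptor core in windows of Nr1h4 and Slc10a1 and TATAAA in a window of Slc10a1. The Nr1h4 window belongs to a start inside the gene (89506658, with the gene beginning at 89533585 in the count annotation). For Slc10a1 the core lay in the window of an inner start (80968079) and TATAAA in that of the outer start (80968705). RefSeq windows were found for 6 of the 10 genes, the others being Cyp27a1, Slc10a1 and Nr1h4, and not for Cyp7a1, Cyp7b1, Baat and Slc27a5. A match is a description of the letters and not of a bound site.

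Cyp8b1 rose from 8823 to 30243 counts, or 383 to 1212 CPM, a ratio of 3.16 (3.09 to 3.24) and a log2(FC) of 1.66. Cyp7a1, upstream of it in the classical pathway, had 3007 fed and 3354 fasting counts, a ratio of 1.03 (0.979 to 1.08; Fisher's exact p = 0.253). The intervals of the 2 genes thus lay far apart, although both belong to the classical pathway. Of the alternative pathway, Cyp7b1 went from 303 to 333 CPM (log2(FC) 0.14) and was not called. Cyp27a1 went from 498 to 361 CPM, 1.38-fold lower (1.34 to 1.42), and its log2(FC) of -0.47 fell short of the threshold for a call.

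Conjugation genes differed little. Baat had a log2(FC) of -0.052 and Slc27a5 of -0.075, and both signs turned with TMM scaling, to 0.072 and 0.050. Scaling by TMM moved all liver values by 0.12 and all white adipose values by -0.11 on the log2 scale, and those of the other tissues by less than 0.1.

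The carriers for export and uptake went apart. Abcb11 fell from 25472 to 8451 counts, or 1106 to 339 CPM, 3.27-fold lower (3.19 to 3.35), with a log2(FC) of -1.71. Slc10a1, which brings bile acids into the cell, was at 507 and 538 CPM with a log2(FC) of 0.086 and was not called. The exons of Abcb11 overlap those of Gm13613 and Gm13614, which reached at most 0.0333 CPM in any library.

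Of the receptors, Nr0b2 fell from 599 to 379 counts, or 26.0 to 15.2 CPM, 1.71-fold lower (1.50 to 1.95; Fisher's exact p = 1.01e-16). Nr1h4, which activates both Nr0b2 and Abcb11, was at 116 CPM in fed and 140 CPM in fasting liver, with a log2(FC) of 0.27, and was not called. Nr0b2 and Abcb11 were thus lower while the RNA of Nr1h4 was not. Other targets of the receptor were not examined as a set, and its activity was not tested. These libraries give no spread between animals; had the coefficient of variation been 0.2, edgeR's exact test would keep Cyp8b1 and Abcb11 but not Nr0b2 (p = 0.0681), and at 0.4 it would keep none (p = 0.0518 for Cyp8b1 and 0.0459 for Abcb11).

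**Figure D3:**
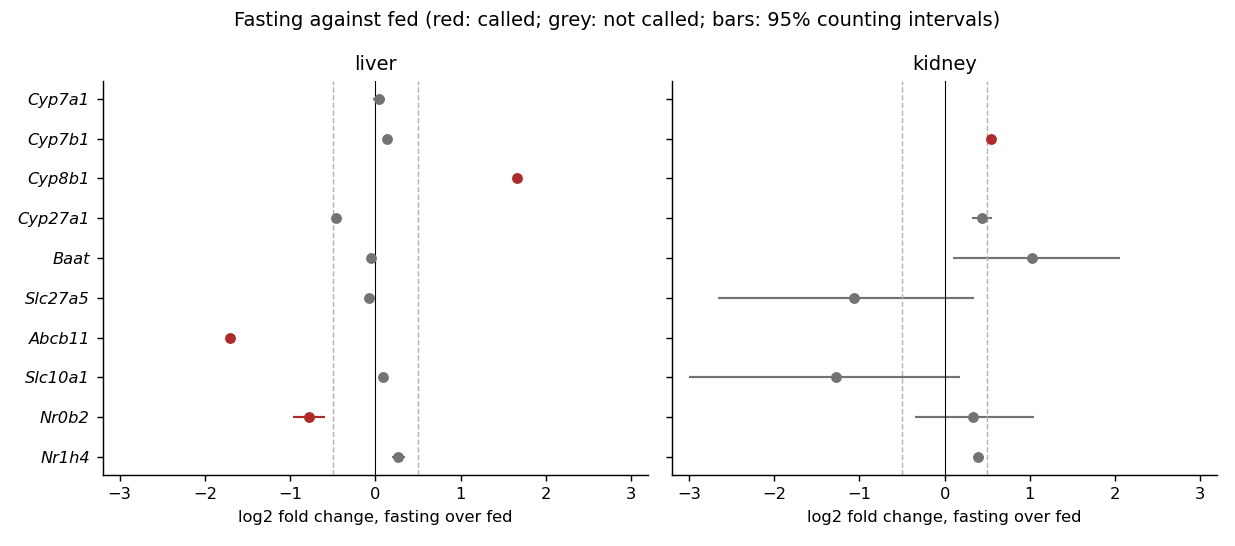
Log2 fold change of fasting over fed for the 10 genes in liver and kidney, with counting intervals; red points were called, grey points were not, and dashed lines mark the fold threshold. Genes with 3 counts or fewer in a library are not drawn; in liver Cyp8b1 lies at 1.66, Nr0b2 at -0.78 and Abcb11 at -1.71, and in kidney Cyp7b1 lies at 0.54.

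In kidney 2.77% of the genes tested were called higher and 3.93% lower, and 8.58% of those with at least 10 CPM were called in either direction. Cyp7b1 rose from 5714 to 9565 counts, or 255 to 371 CPM, 1.46-fold (1.41 to 1.51; Fisher's exact p = 2.21e-115), a log2(FC) of 0.54. This call was lost at a log2(FC) over 1 and in edgeR's exact test at a coefficient of variation of 0.2 (p = 0.187) or 0.4 (p = 0.515). Nr1h4 went from 143 to 188 CPM (log2(FC) 0.39) and Cyp27a1 from 45.4 to 61.4 CPM (log2(FC) 0.44), and neither was called, although Cyp27a1 reached a call with TMM scaling at a log2(FC) of 0.51. The 3 bile acid genes with more than 10 CPM in kidney were therefore all above their fed value in the fasting library, while the proximal tubule markers summed to less there and 1 of the 6, Slc34a1, was called lower.

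Nr0b2 was at 1.38 and 1.75 CPM in fed and fasting kidney (31 and 45 counts) and was not called (log2(FC) 0.34, Fisher's exact p = 0.358). The remaining members had at most 33 counts in a kidney library. Abcb11 had 13 fed counts and 0 fasting counts (3-count floor 0.116 CPM, exact upper limit 0.143 CPM) and was called lower (Fisher's exact p = 4.82e-05). Slc27a5 went from 13 to 7 counts and Slc10a1 from 13 to 6 counts, and Alb went from 32.2 to 7.57 CPM in the same libraries. Per 1000 counts of Alb, Abcb11 was at 18.0 in fed and 0 in fasting kidney (liver 17.3 and 6.49), Slc10a1 at 18.0 and 30.8 (liver 7.95 and 10.3) and Slc27a5 at 18.0 and 35.9 (liver 13.0 and 15.0). Baat stood at 14 and 33 counts, with a Fisher's exact p of 0.0273 that did not pass. Of the 7 hepatocyte markers in kidney 1 was called higher (Serpina1c, 31 to 98 counts), 5 were called lower, Alb among them, and Apob was not called at 1106 and 1561 CPM. Cyp7a1 had 0 counts in both kidney libraries and Cyp8b1 had 1 in each.

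Outside liver and kidney, Cyp27a1 was called higher in muscle, where 13.8% of genes were called. It rose from 1824 to 4919 counts, or 75.8 to 159 CPM, 2.10-fold (1.99 to 2.22; Fisher's exact p = 6.28e-177). In heart, where 10.1% of genes were called, it rose from 22.4 to 33.6 CPM, 1.50-fold (1.31 to 1.72). White adipose, brown adipose, spleen and lung had values of log2(FC) between -0.26 and 0.23 for this gene and were not called. Liver, where it was lower, and muscle, where it was higher, therefore came closer together under fasting conditions.

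In white adipose, where 19.1% of genes were called, Cyp7b1 rose from 1.59 to 3.97 CPM (37 and 109 counts) and Nr1h4 from 3.52 to 5.54 CPM (82 and 152 counts). Markers of epithelial cells were higher in the same fasting library. The 6 proximal tubule markers summed to 65.3 CPM in fed and 742 CPM in fasting white adipose, with Lrp2 at 34.9 and 710 CPM but Kap at 20.4 and 18.2 CPM, and 2 of 6 were called higher. The 7 cholangiocyte markers summed to 40.6 and 167 CPM, and 6 of 7 were called higher. No marker of either list was at the floor in these libraries, and their part in the result was not tested. In brown adipose (13.0% of genes called) and lung (9.18%) none of the 10 genes was called. Cyp7b1 in lung was at 4.72 and 3.47 CPM, with a log2(FC) of -0.45 and a Fisher's exact p of 0.0117. Cyp27a1 in brown adipose passed on p alone (Fisher's exact p = 2.47e-05), with a log2(FC) of -0.26.

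The liver genes gave small counts in other tissues, where Alb was also counted. Pooled over the 12 libraries other than liver and kidney, Slc27a5 had 16.1 counts per 1000 counts of Alb, against 13.0 in fed and 15.0 in fasting liver. Slc10a1 had 7.72 (liver 7.95 and 10.3), Baat 6.79 (4.85 and 5.72) and Cyp7a1 1.53 (2.05 and 2.58). For these 4 genes the pooled ratio was thus near that of liver, but the libraries with most Alb weigh most in it. In single libraries Slc27a5 reached up to 190 counts per 1000 of Alb, while Baat ranged from 2.69 to 47.6, Slc10a1 from 0 to 12.4 and Cyp7a1 from 0 to 4.15. The high ratios of Slc27a5 and Baat were those of fasting lung, which had 8 and 2 counts of them beside 42 of Alb. Fed lung had 8 and 2 counts beside 229 of Alb, while Abcb11 had 6 counts in fed and 1 in fasting lung, all too few to read a direction from.

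The genes that differed in liver were compared in the same way by treatment. Cyp8b1 had 10.2 counts per 1000 counts of Alb in the 6 fed libraries (7.97 to 12.7) and 15.4 in the 6 fasting libraries (12.8 to 18.5), against 6.01 and 23.2 in fed and fasting liver. Abcb11 had 11.9 (9.54 to 14.7) in fed and 14.8 (12.2 to 17.8) in fasting libraries, against 17.3 and 6.49 in liver. By tissue the direction was mixed, with the fasting ratio of Cyp8b1 higher in 4 and lower in 2 (muscle and heart) of the 6 tissues. That of Abcb11 was higher in 3 and lower in 3 (muscle, spleen and lung). Counts in lung (1 and 2 of Cyp8b1, 6 and 1 of Abcb11) and of Cyp8b1 in heart (2 and 6) are too few to read a direction from. The pooled difference of Cyp8b1 rested mainly on spleen, and without it the ratios were 11.4 (8.72 to 14.7) in fed and 13.4 (10.6 to 16.8) in fasting libraries, with overlapping intervals. This pool without spleen was added after seeing the data.

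The 4 genes that other tissues also held stood far above the liver ratio when pooled. Pooled over the 12 libraries, Cyp27a1 had 1234 counts per 1000 counts of Alb, against 7.81 and 6.92 in fed and fasting liver. Cyp7b1 had 47.0 (liver 4.75 and 6.39), Nr1h4 24.9 (1.82 and 2.68) and Nr0b2 18.5 (0.408 and 0.291). For Nr0b2 most of this came from heart, with 490 in fed and 141 in fasting heart. In single libraries Cyp27a1 ranged from 528 to 22119, Cyp7b1 from 6.89 to 2976, Nr1h4 from 3.66 to 429 and Nr0b2 from 0 to 490. The lowest values of Cyp7b1 and Nr1h4, both in muscle, were thus much closer to those of liver than the pooled ones. The kidney marker Kap was also counted in heart (38.7 and 40.6 CPM, fed and fasting), spleen (18.7 and 24.7) and lung (22.4 and 18.9). Per 1000 counts of Kap, Nr1h4 had 79.2 pooled over the 12 libraries and 21.0 in fed heart, the lowest, against 7.985 and 11.6 in fed and fasting kidney. Cyp7b1 had 149 pooled and 40.5 in fed heart, against 14.2 and 22.9 in kidney. The part of kidney cells in these counts was not tested.

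**Figure D4:**
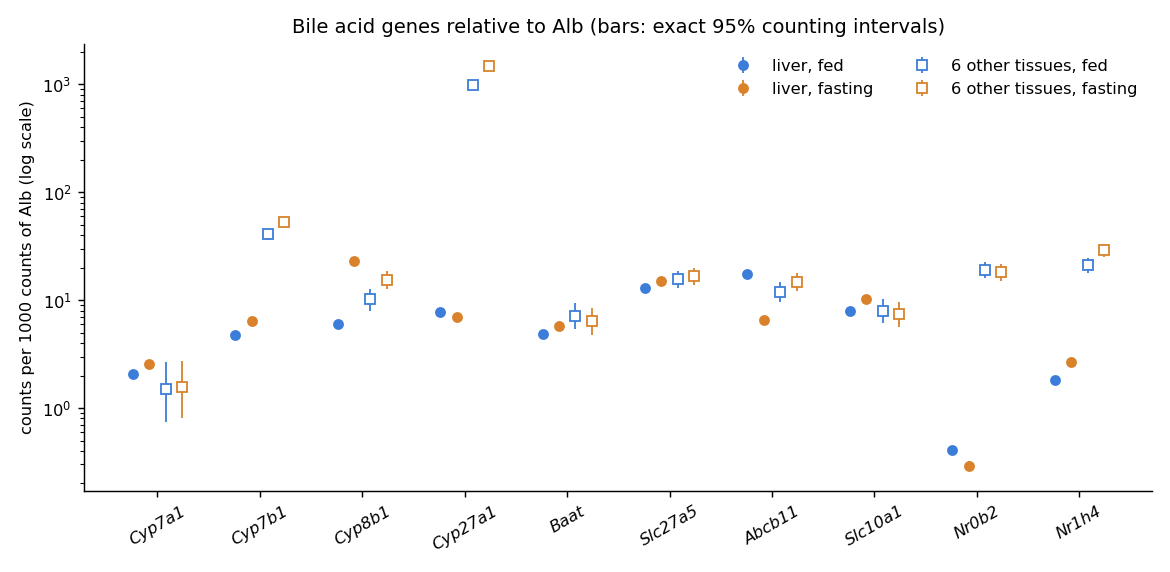
Counts of each gene per 1000 counts of Alb (log axis) in the fed and fasting liver libraries (filled circles) and pooled over the 6 other tissues apart from kidney (open squares), with exact counting intervals. Cyp7a1, Baat, Slc27a5 and Slc10a1 lie at similar heights in liver and elsewhere, whereas Cyp7b1, Cyp27a1, Nr0b2 and Nr1h4 lie far higher outside liver.

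In heart 2 further genes were called. Abcb11 went from 6 to 32 counts and Slc27a5 from 4 to 14 counts, both called higher, while Alb went from 241 to 785 counts and 6 of the 7 hepatocyte markers were called higher. Taken against Alb counts instead of library totals, Abcb11 had a log2(FC) of 0.71 (Fisher's exact p = 0.331) and Slc27a5 of 0.10 (p = 1), and neither was called. Abcb11 stood at 24.9 and 40.8 counts per 1000 of Alb in fed and fasting heart, above the 17.3 and 6.49 of liver, and the source of these counts was not tested. In spleen, where 3.93% of genes were called, Cyp8b1 went from 14 to 40 counts. Of the 7 hepatocyte markers there 1 was called higher (Cps1, 8.39 to 17.3 CPM), 2 were called lower (Ttr and Fgb) and 4 were not called, among them Alb at 90.2 and 65.8 CPM, and their part in the result was not tested. Its log2(FC) in spleen was 1.20 by library totals, against 1.66 in liver, and 1.67 against Alb (Fisher's exact p = 9.16e-05), against 1.95 in liver. By library totals its Benjamini-Hochberg adjusted p of 0.0447 (Fisher's exact test) missed the 0.01 set for adjusted values within a tissue.

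Whether any of these genes shifted alike over the 8 tissues was examined with 1 edgeR quasi-likelihood fit of the 16 libraries, in which tissue was a block. In this fit 1.87% of the genes tested had a Benjamini-Hochberg adjusted p under 0.05, and none of the 10 bile acid genes was among them. Of the 10, 2 had an unadjusted p under 0.05 in edgeR, and DESeq2 likewise called 0 with 2 under 0.05. Cyp8b1 came first with a log2(FC) of 0.95 ± 0.28 (SE), higher in 6 of 8 tissues (edgeR adjusted p = 0.104). This tally takes lung as higher on 1 and 2 counts and heart as higher on 2 and 6. It takes kidney as lower on 1 count in each library. Such counts are too few to read a direction from. Cyp7b1 followed with 0.39 ± 0.15, also higher in 6 of 8 (edgeR adjusted p = 0.187). Abcb11 had -0.51 ± 0.48 and was lower in 5 of 8 tissues. Of these, muscle (17 and 12 counts), spleen (29 and 20) and lung (6 and 1) were not called within their tissue. The lung counts are too few to read a direction from, and heart (6 and 32) was called higher. Since the 8 tissues were taken from the same mice, they do not stand for separate animals.

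Of 46 further genes of the system in liver, 11 were called higher, 9 lower and 26 not, beside 4.46% and 9.52% of all genes tested and 22.7% of those with at least 10 CPM in either direction. Their median log2(FC), over the 39 with at least 1 CPM, was 0.036. These genes too were chosen with earlier results of these data known.

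Among 14 other synthesis enzymes 4 were called higher and 4 lower in liver. Cyp2c70, the mouse enzyme of muricholic acid synthesis, fell from 505 to 24.1 CPM, 21.0-fold lower (19.3 to 22.8). Akr1c14 fell from 492 to 146 CPM, Akr1c6 from 1146 to 378 CPM and Akr1d1, the ring reductase of bile acid synthesis, from 203 to 108 CPM. Slc27a2, an acyl coenzyme A synthetase, rose from 1357 to 3101 CPM, Hsd17b4, the multifunctional enzyme of peroxisomal oxidation, from 498 to 802 CPM, and Acot8, a peroxisomal thioesterase, from 14.2 to 26.5 CPM. Cyp39a1, an oxysterol hydroxylase, rose from 17.0 to 31.1 CPM. Of the peroxisomal enzymes on the list Acox2, Scp2 and Amacr were not called, with log2(FC) of 0.13, 0.13 and 0.048, nor was the ring enzyme Hsd3b7 at -0.16.

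Among 16 other transporters 2 were called higher and 3 lower. Abcb4, the canalicular phospholipid transporter that protects the duct from bile acids, rose from 333 to 933 CPM, 2.81-fold (2.73 to 2.88), in the same libraries in which Abcb11 fell. Atp8b1, the canalicular lipid flippase, fell from 107 to 45.1 CPM. Of the uptake carriers, Slco1a4 rose from 42.6 to 193 CPM, Slco1a1 fell from 790 to 340 CPM and Slc10a2, the sodium-dependent carrier known from ileum and bile duct, fell from 28.4 to 6.13 CPM. Slco1b2, Abcc2, Abcc3 and the sterol pumps Abcg5 and Abcg8 were not called, with log2(FC) between -0.29 and 0.44.

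Among 16 regulators 5 were called higher and 2 lower. Hnf4a, a hepatocyte nuclear factor, rose from 620 to 964 CPM, Ppara, the fatty acid receptor, from 145 to 275 CPM, and its coactivator Ppargc1a from 14.8 to 34.3 CPM. The xenobiotic receptors Nr1i3 and Nr1i2 rose from 170 to 406 CPM and from 64.8 to 95.3 CPM. Fgfr4, the hepatic receptor for the ileal hormone Fgf15, fell from 34.1 to 21.0 CPM and Foxa2 from 43.9 to 18.9 CPM. Klb, the coreceptor of Fgfr4, was at 53.7 and 53.3 CPM and was not called, and Fgf15 itself had 0 counts in all 16 libraries, none of which is from intestine. Ch25h, Slc51a, Fabp6, Gpbar1 and Vdr were likewise at or under the floor in both liver libraries, and Fabp6, Gpbar1 and Foxa2 in both kidney libraries.

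In kidney 5 of the 46 were called higher and 7 lower, beside 2.77% and 3.93% of all genes tested. Of those with at least 10 CPM, Hsd17b4 (264 to 433 CPM), Abcc4 (65.7 to 129 CPM), Acot8 (22.2 to 35.0 CPM) and Ppara (86.9 to 131 CPM) rose. Amacr (334 to 177 CPM), a peroxisomal racemase, Slc10a2 (113 to 77.7 CPM), Slc51a (44.3 to 22.2 CPM), a basolateral bile acid exporter subunit, and Fgfr4 (32.7 to 20.7 CPM) fell. Of these 8 genes, Hsd17b4, Acot8 and Ppara were called higher, and Slc10a2 and Fgfr4 lower, in both organs. Cyp2c70, the Akr1c genes and the Slco1a genes belong to families of similar genes, and how reads shared between copies were counted is not given in the sources used here, which leaves their values less certain.

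**Figure D5:**
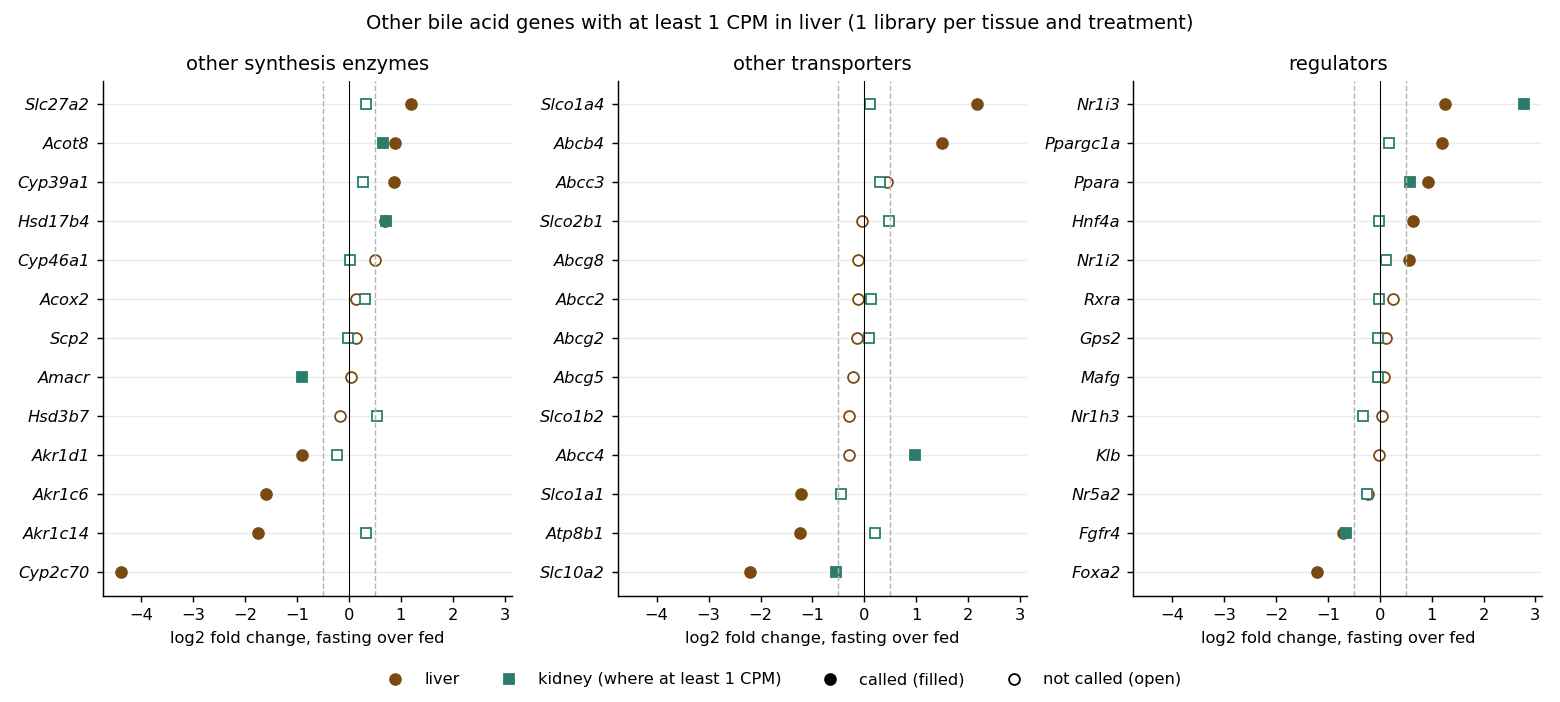
Log2 fold change of fasting over fed for the other bile acid genes with at least 1 CPM in liver, by list, with liver as circles and kidney as squares; filled symbols were called. Cyp2c70 lies lowest in liver at -4.39 and Slco1a4 highest at 2.18, and most open symbols lie between the dashed lines at the fold threshold.

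Over the 46 genes, 43 were tested in the fit across tissues, and Cyp2c70 was called lower (log2(FC) -3.30 ± 0.71, lower in 7 of 8 tissues, edgeR adjusted p = 0.0433). Outside liver it had at most 13 counts in any library, with 12 and 0 in fed and fasting kidney, 8 and 2 in muscle and 13 and 1 in spleen. Brown adipose had 9 and 4, white adipose 5 and 4 and lung 4 and 0. Heart went the other way, with 0 fed and 7 fasting counts, and was called higher within that tissue. Alb was also lower in the fasting library of kidney (723 and 195 counts) and lung (229 and 42 counts) and higher in that of heart (241 and 785 counts). The part of Alb was not tested. The call across tissues was lost without the liver libraries (log2(FC) -1.53, edgeR adjusted p = 0.351). It was also lost without kidney, muscle, brown adipose, spleen or lung (edgeR adjusted p between 0.0751 and 0.0851), but not without heart or white adipose. It was also lost with robust dispersion (edgeR adjusted p = 0.0543) and with DESeq2 (adjusted p = 0.0667), and the gene did not enter the fits without the block and with filterByExpr by treatment, whose filter left it out. Nr5a2, a nuclear receptor known to regulate bile acid synthesis, was lower in 8 of 8 tissues with a log2(FC) of -0.76 ± 0.17 and did not pass (edgeR adjusted p = 0.0508). Within a tissue, Nr5a2 was called lower in heart, white adipose and lung alone. It was not called in liver, where it was highest (107 and 92.0 CPM, log2(FC) -0.22). Nor was it called in kidney (29 and 28 counts), muscle (26 and 15), spleen (19 and 13) or brown adipose (41 and 19). In the fit across tissues Nr5a2 was called lower with total counts, with no filter, with filterByExpr by treatment and with DESeq2. Slco2b1, an uptake carrier, was called higher in the last 3 of these and without white adipose, and Abcg2 with DESeq2.

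Of the same 46 genes, 1 was called higher and 3 lower in muscle (13.8% of all genes called) and 4 and 1 in brown adipose (13.0%), both under the share of all genes. In heart 6 were called higher and 3 lower (10.1%), in white adipose 10 and 3 (19.1%), in spleen 2 and 2 (3.93%) and in lung 5 and 2 (9.18%). Nr5a2 was among those lower in heart, white adipose and lung, while Abcg2, a sterol and drug pump, was among those higher in heart, brown adipose and lung. White adipose had the most calls among these 6 tissues. In heart 3 of the 6 called higher, Akr1c6 (2 and 18 counts), Cyp2c70 (0 and 7) and Slco1b2 (3 and 16), rested on few counts, in the libraries in which 6 of the 7 hepatocyte markers were called higher, and the part of these markers was not tested. In white adipose 7 of the 16 regulators were called higher, among them Hnf4a (59 and 1600 counts) and Fgfr4 (11 and 570 counts), and 2 lower. The fasting white adipose library was also the one with more of the epithelial markers, whose part in these counts was not tested.

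Genes of like pattern were sought by Pearson's r of log2(CPM + 1) over the 16 libraries among 21965 genes. The libraries share 2 pools and the liver libraries set most of the correlation, so it is given as a description. Slc10a1 was nearest to Slc27a5 (r = 0.998) and to Cyp2d10. Cyp8b1 was nearest to Apoa5 (r = 0.997) and Hsd17b13, which also went from 738 to 1613 CPM and from 257 to 512 CPM in liver. Abcb11 was nearest to Cyp1a2 (r = 0.998) and Cyp2c29, which went from 597 to 195 CPM and from 1891 to 401 CPM. The neighbours of Cyp8b1 and Abcb11 thus moved in liver in the direction of their gene, and the liver libraries entered the correlation. Those of Nr0b2, which was lower in fasting liver, moved the other way, Prox1 from 160 to 277 CPM and Slc39a14 from 228 to 254 CPM.

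Cyp7a1 was nearest to Gm34667 and Gm32281 (r = 0.999 for both), Baat to Cyp2d37-ps and Gulo (r = 0.997 and 0.996), and Slc27a5 to AC157910.3 and Mup11 (r = 0.999 for both). The genes shared with kidney had other neighbours: Cyp7b1 was nearest to Gm5424 and Ass1 (r = 0.992 for both) and Nr1h4 to Agxt2 and Fbp1 (r = 0.992 and 0.990). Cyp27a1 and Nr0b2 had no close neighbour, with Apoa1 and Bhmt at r = 0.892 for Cyp27a1, and Prox1 at 0.926 and Slc39a14 at 0.918 for Nr0b2. Between the members, Cyp7b1 and Nr1h4 had r = 0.974, while Nr0b2 and Nr1h4 had r = 0.575.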

How the data were processed

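Strand-specific short-read RNA-Seq was done on 8 tissues of fed and fasting mice, 1 library each (16 in all). Per the labels and the paper's methods, the authors used fastp 0.23.2 for trimming, FastQC 0.11.8 for quality control and HISAT2 2.2.1.0 for alignment to GRCm38, and deposited featureCounts (Subread 2.0) counts per gene on GENCODE release 24, without normalization, with gene length as an other column that is not a measurement. The strand setting and whether reads or pairs were counted are not given in the sources used here.

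Symbols were matched by identifier to GENCODE release 21 of the same build (55144 of 55385 genes without version). Promoters are from RefSeq (GRCm38.p6). The 10 genes, the lists of 46 further genes and the marker lists were chosen with earlier results of these data known.

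CPM used library totals of 14245178 to 36069968, and log2(FC) a pseudocount of 0.01 CPM. Within a tissue, Fisher's exact test (two-sided) compared counts of the 2 libraries, with calls at a log2(FC) above 0.5 and p under 0.01. Intervals are exact Poisson for CPM and exact (Clopper-Pearson, conditional on the sum) for ratios; they cover counting error only. The common fit used edgeR 4.0.16 under R 4.3.3 (TMM, filterByExpr, quasi-likelihood test, tissue block), with calls at a Benjamini-Hochberg adjusted p under 0.05. Scripts were tested on simulated data.

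Named genes were the 10 members, genes of the 3 lists called in liver or kidney with at least 10 CPM or at the floor in both libraries, the 2 highest of each marker list (hepatocyte, cholangiocyte, proximal tubule, acinar, Kupffer and stellate cell), and the 2 of nearest pattern to each member. Others (Klb, Nr5a2, Abcg2, Cps1, Ttr, Fgb, Serpina1c, Acox2, Scp2, Hsd3b7, Slco2b1, Hnf4a, Fgfr4, Slco1b2, Abcc2, Abcc3, Abcg5, Abcg8, Slc34a1) were named after their values were seen. Alternatives were a pseudocount of 1, TMM, DESeq2 1.42.0 size factors, a library size without the 10 highest genes, a filter at 1 CPM, adjusted p-values under 0.01, a log2(FC) above 1, the exact test of edgeR at a coefficient of variation set to 0.2 or 0.4, and for the common fit DESeq2's Wald test, total counts, no filter, no block, robust dispersion and each tissue left out. The comparison with Alb counts, its pool without spleen and filterByExpr by treatment alone were added after seeing the data.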

Additional observations from a re-analysis of the deposited data

Results flagged for a closer look

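Abcb11 moved in opposite directions in different tissues. It was called lower in fasting liver (1106 to 339 CPM) and higher in fasting heart (6 to 32 counts), and its log2(FC) in heart was 4.26 above that in liver. The difference between the tissues was not tested, since each is 1 pair of libraries. Against Alb counts, the heart value was not called (log2(FC) 0.71, Fisher's exact p = 0.331). Per 1000 counts of Alb, Abcb11 was at 40.8 in fasting heart and 6.49 in fasting liver.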

How the results depend on the processing

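No paired analysis was possible by replicate number, because all 16 libraries carry the same one. The fit across tissues pairs fasting with fed by tissue instead. Of the liver calls, 1 gene was called lower with a log2(FC) over 1 and at a coefficient of variation set to 0.2 (2 in the comparison as reported), and 0 were called higher and 0 lower at 0.4. In kidney, TMM gave 2 genes called higher, a log2(FC) over 1 and both assumed coefficients gave 0, and the filter at 1 CPM left 0 called lower (1 as reported, Abcb11 on 13 counts). Of the 46 further genes, 5 were called higher in liver with a log2(FC) over 1 and at a coefficient of 0.2, and 0 higher and 1 lower at 0.4. In kidney 1 was called higher with a log2(FC) over 1 and at 0.2 and 0 at 0.4, and 4 lower with the filter at 1 CPM, 3 with a log2(FC) over 1, 2 at 0.2 and 1 at 0.4. Without division by length Abcb11 ranked 1 in fed liver and not 4. The signs of Baat and Slc27a5 in liver turned with TMM (0.072 and 0.050) and with DESeq2 size factors (0.072 and 0.050).

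None of the 10 genes was called across tissues in any of the fits run, and the lowest adjusted p among them ranged from 0.0530 without white adipose upward, and was highest without the tissue block. Signs turned there for 5 genes whose values lay near 0: Cyp7a1 with DESeq2 (-0.029) and total counts (-0.019), and Slc27a5 and Slc10a1 without the block (0.051 and 0.21). With each tissue left out in turn, Baat ranged from -0.059 to 0.25, Slc27a5 from -0.15 to 0.052, Slc10a1 from -0.31 to 0.023 and Nr0b2 from -0.22 to 0.099, the last without liver. Leaving out 1 tissue moved the number of all genes called from 442 to between 81 (without brown adipose) and 473 (without spleen), with 258 without kidney, 135 without muscle, 125 without heart and 132 without lung. DESeq2 called 1864, no filter 677, filterByExpr by treatment 759 and no block 1. In liver all-gene calls went from 3501 to 1483 with a log2(FC) over 1, and to 921 and 214 at the assumed coefficients of 0.2 and 0.4. In kidney they went from 1867 to 716, 367 and 46. Values under about 10 counts limit what can be said of the liver genes outside liver.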
